A study of Mus musculus with 16 samples.

Results

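Genes for CD antigens, C-type lectins, Siglecs, Fc receptors, MHC molecules and other immune surface receptors were examined in peritoneal macrophages (PMs) by MeRIP-seq, in which RNA fragments are captured with an antibody against N6-methyladenosine (m6A) and sequenced as the IP library beside uncaptured fragments, the input library. Members were taken by gene symbol alone (names that begin with Cd and a digit, Clec, Siglec, Fcgr, Fcer, Lilr, Pira, Pirb, Pilr, Ms4a, Slamf, Msr1, Marco, Trem, Mrc, Stab, Havcr, Timd4 or H2-, leaving out Cd5l and Cd86). The rule itself uses no measured value, but it was chosen with earlier results of these data known. It reaches only genes with a peak in the deposited table. The rule found 68 gene IDs among the 4943 in the deposited table of m6A peaks, and 116 of its 7069 peaks. For 12 of these IDs the symbol column and the description column of the table name different genes or older forms, and the name in the description is used here (for example Siglece for Siglec12 and Ms4a4c for Ms4a4d). No peak of 55 members is shared with another gene, 13 members share at least 1 peak, and 9 of these, among them Cd72, H2-T23, Ms4a6c and both Lilrb4 genes, have only shared peaks.

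The PMs came from WT and Adap-/- mice of C57BL/6 background, sex-matched littermates 6 to 8 weeks old, and were washed from the peritoneal cavity 3 days after thioglycolate injection. Adap-/- mice lack ADAP, the adaptor protein encoded by Fyb1, in the whole animal and not in macrophages alone. PMs of each genotype were mock-treated or stimulated with 1 µg/ml LPS for 6 h in culture, which gave 4 groups with 2 replicates each, and 1 input and 1 IP library per replicate. Nothing states that the replicates came from separate animals, so the p-values measure the spread between these samples, which may be technical. Input libraries held between 2121313 and 4325961 reads on peaks and IP libraries between 5728590 and 19030373, of which the members took 5.05% to 6.58% and 4.30% to 7.11%. The input level of Fyb1 lay between 35.7 and 46.7 CPM (reads on the peaks of a gene scaled to the total of the library) in the Adap-/- libraries and between 244 and 377 CPM in the WT libraries. Of 7 macrophage markers, 6 are in the table (Adgre1, Cd68, Csf1r, Fcgr1, Lyz2 and Mertk), with a summed input level of 6746 to 9514 CPM. Of these markers Cd68 and Fcgr1 are also members. The table lists only transcripts with a peak, so the markers it does not hold were not measured. It holds no marker of T and NK cells, dendritic cells, mast cells, eosinophils or fibroblasts and mesothelium from the lists used, and 1 each of B cells (Cd22, also a member), neutrophils (Csf3r) and resident PMs (Cd5l). Csf3r lay between 123 and 164 CPM in mock-treated and between 306 and 388 CPM in LPS-stimulated PMs. Cd5l lay between 139 and 158 CPM in WT and between 243 and 286 CPM in Adap-/- mock-treated PMs, and between 108 and 121 CPM and between 147 and 165 CPM after LPS. The part of other cells in the results was not tested. In bulk RNA, fewer cells of a type and less RNA per cell cannot be told apart.

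A group of IP libraries stood apart. Over 76 genes outside the members that LPS raised by more than 5 on the log2 scale in both genotypes, the IP reads of mock-treated WT replicate 1 and Adap-/- replicate 2 reached 69.4% and 57.9% of the mean IP level after LPS, against 4.08% and 6.46% in the other mock replicates and 0.855% to 1.23% in the mock input libraries. Over 10 genes that LPS lowered by more than 4, the IP reads of the LPS-stimulated WT replicates were at 28.2% and 14.8% of the mean mock level, those of the Adap-/- replicates at 5.08% and 5.60%, and the LPS input libraries at 3.16% to 4.54%. Levels of the members were therefore taken from the input libraries alone, and several IP-to-input results are given with and without the mock replicates named here.

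Macrophages read their surroundings through these proteins. CD14 hands LPS to the TLR4 complex, C-type lectins and scavenger receptors bind microbial and altered-self ligands, Fc receptors bind antibody, and MHC molecules display peptides to T cells and NK cells. Many of them come as pairs of similar receptors with opposite tails: an activating member couples to adaptors with an ITAM (DAP12 or the Fc receptor gamma chain), and an inhibitory member carries an ITIM that recruits phosphatases.

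After filtering on low counts 67 members were tested. Cd200, the ligand of the CD200 receptors, had at most 7 input reads in any library and was left out. The input reads of all peaks of a gene were summed and compared with edgeR's quasi-likelihood test in 1 fit of the 8 input libraries, with p-values adjusted by the Benjamini-Hochberg method over 4742 genes, and a gene is called at an adjusted p below 0.05. In WT PMs 40 members rose and 14 fell with LPS, where 30.2% of all genes tested rose and 28.9% fell, so that 59.7% and 20.9% of the members stand beside these shares. Adap-/- PMs had 41 members that rose and 14 that fell, against 28.5% and 26.0% of all genes. The median log2 fold change of the members was 0.82 in WT and 0.73 in Adap-/- PMs, while that of all genes was −0.03 in each. With members at 0 to 3 reads in a group set to their lower bound, the WT median was 0.77. The same 39 members rose and the same 13 fell in both genotypes, 10 were called in neither, and none was called in opposite directions. A change of more than 1 on the log2 scale was called for 31 members upward and 11 downward in WT PMs where 18.5% and 14.8% of all genes passed the same rule, and for 29 and 10 in Adap-/- PMs, against 16.7% and 12.3%.

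**Figure D1:**
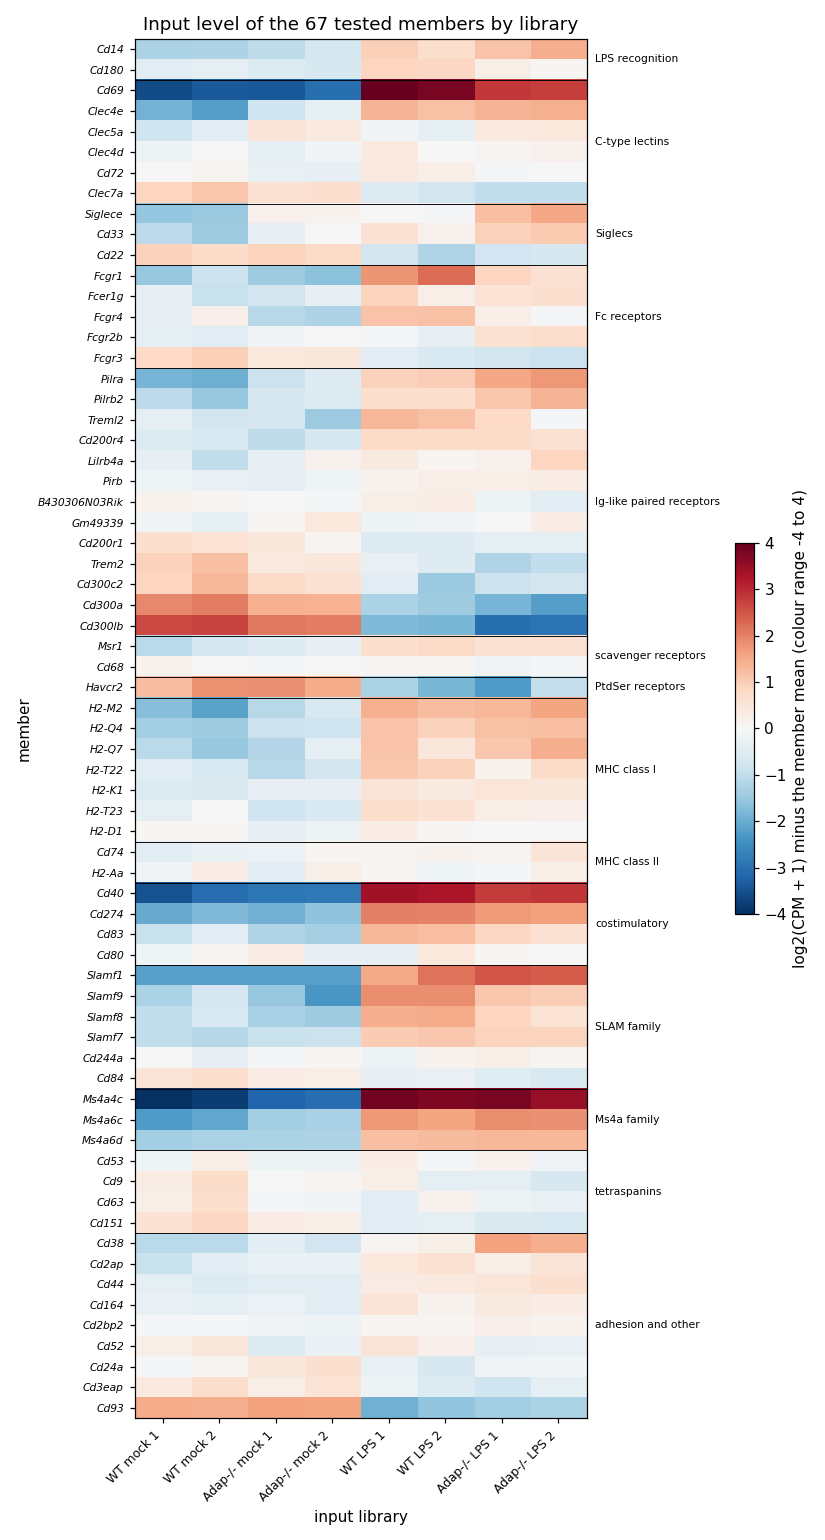
Input level of the 67 tested members (rows, grouped by role) in the 8 input libraries (columns), as log2(CPM + 1) minus the mean of the member over all libraries, with red above and blue below that mean. The change from mock to LPS dominates most rows, in red for Cd69, Cd40 and Ms4a4c and in blue for Cd300lb, Cd300a and Cd93.

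Between genotypes the differences were fewer and smaller. After LPS 9 members had a higher level in Adap-/- PMs and 17 a lower level, where 6.03% of all genes were higher and 9.78% lower. In mock-treated PMs 14 were higher and 15 lower, against 8.71% and 8.65% of all genes. The median log2 fold change of the members was −0.06 after LPS and 0.00 without it, and that of all genes −0.01 and 0.01. Both conditions called 6 members higher (Cd33, Clec5a, Fcgr2b, Pilra, Pilrb2 and Siglece) and 11 lower (Cd300a, Cd300lb, Cd52, Cd72, Cd83, Clec7a, Fcgr4, H2-T23, Slamf8, Slamf9 and Trem2), and no member was higher in one and lower in the other. Differences past 1 on the log2 scale with an unadjusted p below 0.05 were found for 2 members upward and 4 downward after LPS, where 1.88% and 1.41% of all genes passed, and for 7 and 1 without it, against 2.09% and 1.24%. The calls of 11 members after LPS (B430306N03Rik, Cd180, Cd300lb, Cd69, Fcgr1, Fcgr2b, Fcgr4, Pilra, Siglece, Slamf8 and Slamf9) and of 12 without LPS (Cd300a, Cd300lb, Cd33, Cd52, Clec4e, Clec5a, Fcgr4, H2-Q4, Ms4a6c, Pilra, Siglece and Trem2) held at an adjusted p below 0.05 in every alternative fit that tested them. Several of them do not pass the thresholds of the sentence before. The other calls between genotypes were lost in at least 1 fit, mostly when a library was left out. The number called after LPS was 14 without Adap-/- LPS replicate 2 and 15 without WT LPS replicate 1, and in mock-treated PMs 13 without Adap-/- mock replicate 2 and 18 without WT mock replicate 2. The test of whether genotype alters the LPS response called 0 members with a larger and 5 with a smaller response in Adap-/- PMs, against 0.358% and 1.29% of all genes. An unadjusted p below 0.05 was reached by 17 members in that test (25.4%) and by 12.7% of all genes.

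**Figure D2:**
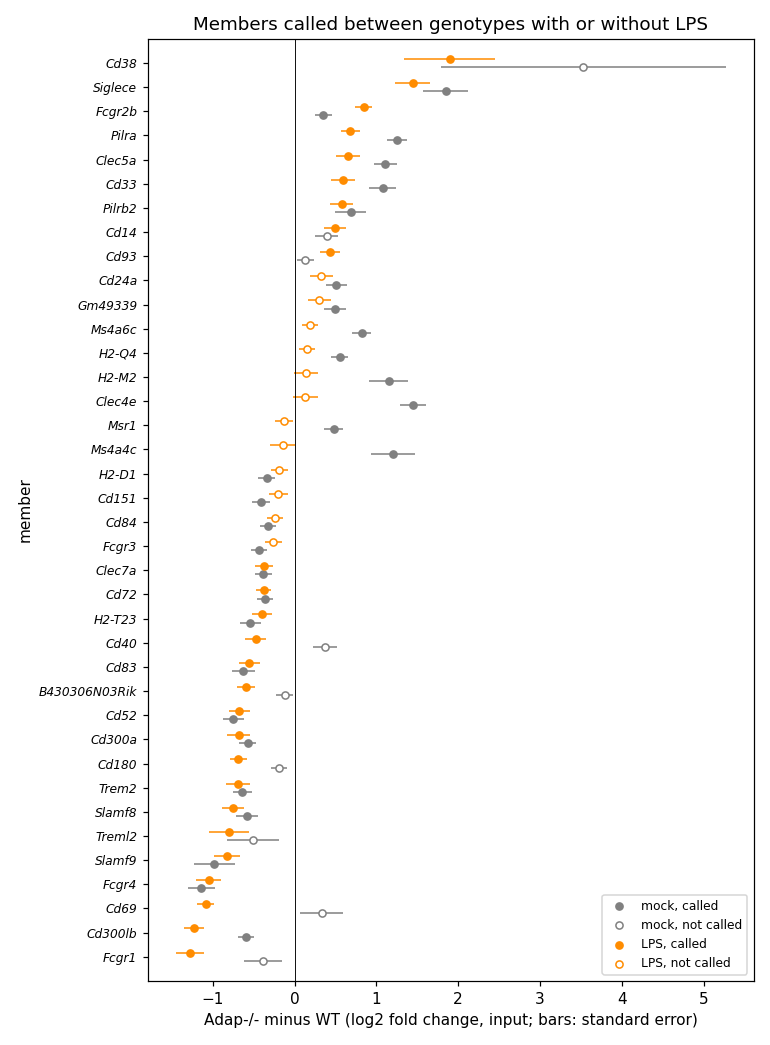
Log2 fold change of Adap-/- over WT PMs in input (horizontal axis, bars show the standard error) for every member called between genotypes with LPS (orange) or without it (grey), with filled points for calls and open points otherwise. Siglece, Fcgr2b, Pilra, Clec5a and Cd33 lie to the right in both conditions, and Fcgr4, Cd300lb, Slamf9 and Trem2 to the left. The value of Cd38 without LPS rests on 0 to 2 reads per library.

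Both members that take part in LPS recognition rose with LPS in both genotypes and differed in opposite directions between the genotypes after LPS. Cd14, the LPS-binding co-receptor of TLR4, had 509 and 512 CPM in the 2 mock-treated WT replicates and 2346 and 1978 CPM after LPS (log2 fold change 2.08, standard error 0.14, adjusted p = 1.69e-09). In Adap-/- PMs it had 597 and 742 CPM without LPS and 2711 and 3376 CPM with it. All LPS-stimulated Adap-/- values lay above the WT values, and the difference was called (log2 fold change 0.49, standard error 0.13, adjusted p = 0.0193), though not without Adap-/- LPS replicate 2 (0.33) or without WT LPS replicate 2 (0.38). Cd180, a TLR-like receptor that associates with the TLR4 system, had 1013 and 1061 CPM in mock-treated and 2498 and 2425 CPM in LPS-stimulated WT PMs. The Adap-/- replicates had 936 and 883 CPM without LPS and 1612 and 1441 CPM with it. Cd180 was lower in Adap-/- PMs after LPS (log2 fold change −0.69, standard error 0.10, adjusted p = 0.000379). Of the 6 listed genes of the LPS receptor complex outside the members, Tlr4 and Ticam2 were tested. Tlr4 had 41.3 and 40.5 CPM in LPS-stimulated WT and 60.4 and 62.7 CPM in Adap-/- PMs and was higher in the latter (log2 fold change 0.59, standard error 0.13, adjusted p = 0.00636), as was Ticam2 (log2 fold change 0.36, adjusted p = 0.0169).

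C-type lectins split by LPS. Of 6 tested, 5 rose and Clec7a fell in WT PMs. Of the 5 rises those of Clec5a, Clec4d and Cd72 were small and lost their call without WT LPS replicate 1 and without WT mock replicate 1, and those of Clec5a and Clec4d also with DESeq2 and with a minimum of 10 reads in every input library. Clec5a also lost it in a fit of only the libraries compared. Clec4e, which encodes Mincle, a receptor for mycobacterial glycolipid that signals through the Fc receptor gamma chain, had 2586 and 2098 CPM in mock-treated and 24486 and 21493 CPM in LPS-stimulated WT PMs. The Adap-/- replicates had 5521 and 7271 CPM without LPS and 24568 and 25812 CPM with it. The mock-treated Adap-/- replicates thus lay above both WT replicates (log2 fold change 1.45, standard error 0.16, adjusted p = 3.36e-05), whereas the LPS-stimulated groups were close (log2 fold change 0.13, standard error 0.15, adjusted p = 0.621). Cd69, an early activation antigen of leukocytes, had 5.37 and 6.47 CPM in mock-treated and 1207 and 1055 CPM in LPS-stimulated WT PMs. The Adap-/- replicates had 6.3 and 8.49 CPM without LPS and 543 and 522 CPM with it. Its LPS-stimulated level was lower in Adap-/- PMs (log2 fold change −1.09, standard error 0.10, adjusted p = 6.78e-06) and its mock level was not called different (log2 fold change 0.33, standard error 0.26, adjusted p = 0.447).

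Clec7a, the gene of the beta-glucan receptor Dectin-1, had 970.0 and 1153 CPM in mock-treated and 369.8 and 319 CPM in LPS-stimulated WT PMs, and 783 and 846 CPM without LPS and 265 and 266 CPM with it in Adap-/- PMs. It fell by the same size in both genotypes (log2 fold change −1.62 in WT and −1.62 in Adap-/- PMs, standard error 0.11 in each) and was lower in Adap-/- PMs with LPS (−0.37 ± 0.11 on the log2 scale, ± standard error) and without it (−0.38 ± 0.11). Clec5a, an activating lectin coupled to DAP12, had 32 and 41 CPM and 81.9 and 75.2 CPM in mock-treated WT and Adap-/- PMs and 52.2 and 43.4 CPM and 74.5 and 76.6 CPM after LPS. All Adap-/- values lay above all WT values, and both differences were called (log2 fold change 1.11 without and 0.65 with LPS). Clec4d, a relative of Clec4e, had log2 fold changes with LPS of 0.33 and 0.39, and Cd72, an inhibitory lectin best known from B cells, of 0.30 and 0.28. In Adap-/- PMs the call of Clec4d was lost without LPS replicate 2 or mock replicate 1, and that of Cd72 without any 1 of the 4 libraries. Cd72 was also lower in Adap-/- PMs in both conditions (−0.36 without and −0.38 with LPS).

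The Siglecs, which bind sialic acid and mostly carry ITIMs, held the largest difference between genotypes among members with more than 3 reads in every library. Siglece had 4.35 and 4.58 CPM in mock-treated WT and 16.3 and 16 CPM in mock-treated Adap-/- PMs (log2 fold change 1.85, standard error 0.27, adjusted p = 0.000388). After LPS it had 14.6 and 14.1 CPM and 34.4 and 44.5 CPM (log2 fold change 1.45, standard error 0.21, adjusted p = 0.000366). The mock-treated Adap-/- values thus lay above the LPS-stimulated WT values, and Siglece rose with LPS in both genotypes (log2 fold change 1.68 and 1.28). Cd33 was likewise higher in Adap-/- PMs, with 65.2 and 50.1 CPM and 106 and 137 CPM without LPS and 202 and 153 CPM and 256 and 281 CPM with LPS in WT and Adap-/- PMs. Its differences between genotypes were 1.08 ± 0.17 and 0.59 ± 0.15 on the log2 scale. Cd22, an inhibitory Siglec typical of B cells, fell with LPS from 148 and 129 CPM to 46.6 and 32.9 CPM in WT and from 145 and 133 CPM to 45.4 and 49.6 CPM in Adap-/- PMs, and was not called between genotypes.

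The Fc receptors, which bind the constant part of antibodies, moved in different directions with LPS and with genotype. Fcgr1, the high-affinity IgG receptor, had 27.4 and 43.9 CPM in mock-treated and 274 and 382 CPM in LPS-stimulated WT PMs (log2 fold change 3.20, standard error 0.20, adjusted p = 5.58e-10), and 29.4 and 25 CPM without LPS and 146 and 122 CPM with it in Adap-/- PMs (log2 fold change 2.31, standard error 0.21, adjusted p = 7.29e-08). After LPS every Adap-/- value lay below every WT value (log2 fold change −1.28, standard error 0.17, adjusted p = 0.000204). Fcgr4, another activating IgG receptor, had 93.1 and 134 CPM without LPS and 259 and 262 CPM with it in WT and 53.8 and 49.3 CPM without LPS and 140.2 and 110.5 CPM with it in Adap-/- PMs, so its WT level was above the Adap-/- level in each condition. These differences were −1.14 ± 0.16 without and −1.05 ± 0.15 with LPS on the log2 scale (adjusted p = 0.000327 and 0.000286).

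Fcgr2b, the inhibitory IgG receptor with an ITIM, went the other way between genotypes. It had 599 and 571 CPM without LPS and 753 and 623 CPM with it in WT, and 729 and 763 CPM without LPS and 1202 and 1273 CPM with it in Adap-/- PMs. The difference was 0.85 ± 0.11 after LPS (adjusted p = 0.000111) and 0.35 ± 0.11 without it (adjusted p = 0.0318), and its LPS rise was called in Adap-/- PMs (0.73 ± 0.11) but not in WT PMs (0.23 ± 0.11). The difference between these responses was 0.49 ± 0.15 with an adjusted p of 0.123 and so was not called. Fcgr3, an activating receptor, fell with LPS from 1143 and 1279 CPM to 478 and 428 CPM in WT and from 887 and 906 CPM to 392 and 365 CPM in Adap-/- PMs, and was lower in mock-treated Adap-/- PMs (−0.43 ± 0.10). Fcer1g, the gamma chain that carries the ITAM for these receptors and for Mincle, rose with LPS by 1.29 ± 0.30 in WT and 1.20 ± 0.30 in Adap-/- PMs. It had 24 to 80 reads per input library, and its call in WT PMs was lost without LPS replicate 1. In the coordinates of the table, which the submitters' processing notes give as GRCm39, Fcgr2b, Fcgr4 and Fcgr3 lie in 1 cluster, in this order (chr1:170786186-170803696, chr1:170846489-170857330 and chr1:170878744-170886972), and Fcgr1 lies at chr3:96190225-96201285. Each of the 3 differences in the cluster was called in mock-treated PMs, in both directions.

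**Figure D3:**
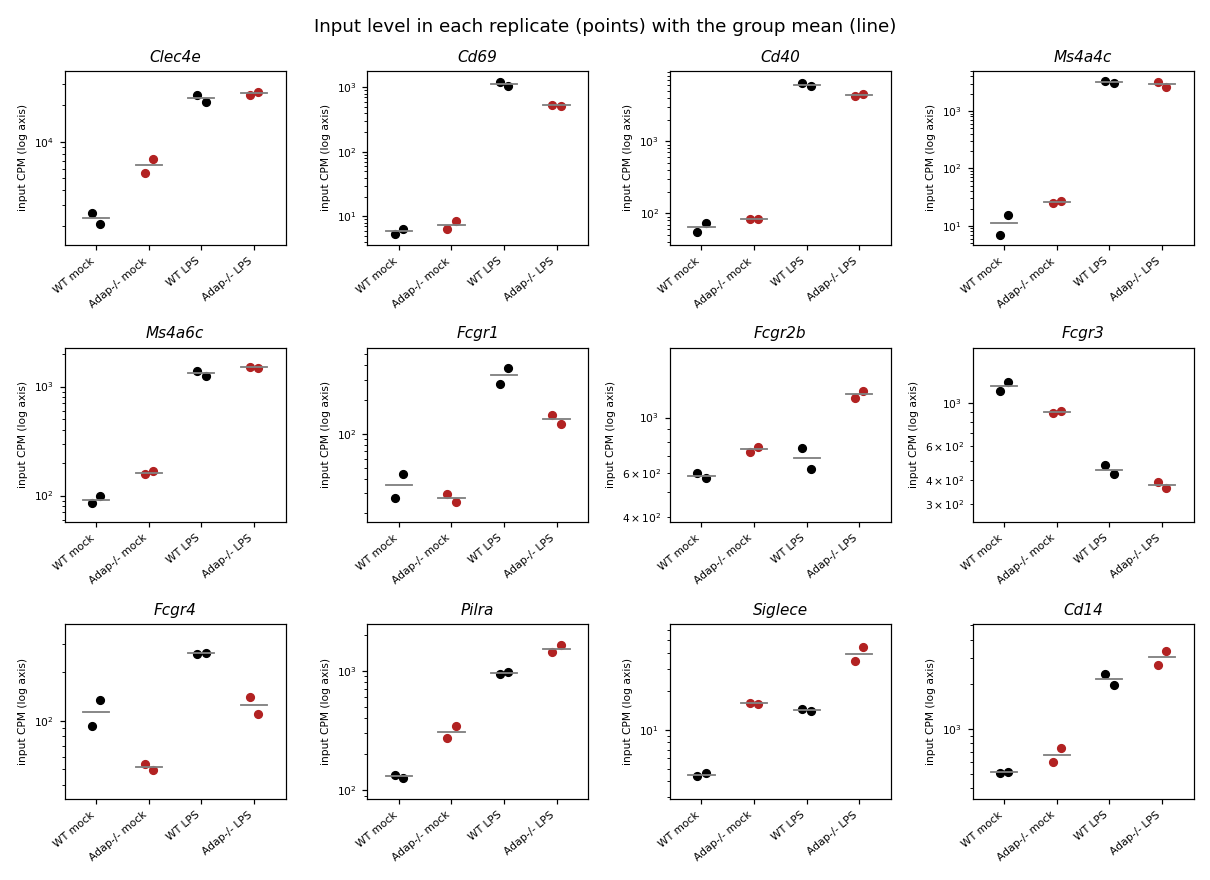
Input level in CPM on a log axis for 12 members in the 2 replicates of each group (points, black for WT and red for Adap-/-) with the group mean (line). The genotypes are apart without LPS for Clec4e and Ms4a6c and apart after LPS for Cd69 and Fcgr1, while Siglece and Pilra are higher and Fcgr4 is lower in Adap-/- PMs in both conditions.

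Of 13 paired Ig-like receptors tested, 6 rose and 5 fell with LPS in each genotype. The Pilr genes rose. Pilra, the inhibitory member, had 134 and 127 CPM without LPS and 937 and 972 CPM with it in WT, and 273 and 347 CPM without LPS and 1435 and 1624 CPM with it in Adap-/- PMs. The Adap-/- values were higher without LPS (log2 fold change 1.25, standard error 0.12, adjusted p = 1.25e-05) and with it (log2 fold change 0.68, standard error 0.11, adjusted p = 0.000887). Pilrb2, an activating relative whose only peak is shared with another gene, had 20.7 and 14.6 CPM without LPS and 68.4 and 70.8 CPM with it in WT and 27.6 and 29.4 CPM without LPS and 93.9 and 114 CPM with it in Adap-/- PMs. It had the same order, with differences of 0.69 ± 0.19 and 0.57 ± 0.14 on the log2 scale. Pirb, an inhibitory receptor for MHC class I, rose with LPS by 0.44 ± 0.10 and 0.52 ± 0.10 and was not called between genotypes. Lilrb4a rose by 0.85 ± 0.25 and 0.60 ± 0.23, but it shares reads with its near copy Gm49339, which was not called with LPS (0.07 ± 0.14 and −0.11 ± 0.13), and both values are uncertain for that reason.

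The CD300 receptors fell. Cd300lb, an activating member that couples to DAP12, had 2058 and 2172 CPM in mock-treated and 96.9 and 92.9 CPM in LPS-stimulated WT PMs (log2 fold change −4.48, standard error 0.11, adjusted p = 1.95e-14), the largest called fall among the members. In Adap-/- PMs it went from 1439 and 1368 CPM to 39.5 and 41.9 CPM and lay below WT already without LPS (log2 fold change −0.59, standard error 0.09, adjusted p = 0.000616). Cd300a, the inhibitory partner, had 599.6 and 656 CPM without LPS and 65.3 and 59.3 CPM with it in WT and 425 and 418 CPM without LPS and 43.4 and 33.5 CPM with it in Adap-/- PMs. It was lower in Adap-/- PMs in both conditions (−0.57 ± 0.10 and −0.68 ± 0.14). Cd300c2 fell with LPS, with log2 fold changes of −2.06 ± 0.29 in WT and −1.58 ± 0.29 in Adap-/- PMs, and was not called between genotypes. These genes lie within chr11:114780867-114795480, chr11:114813607-114825212 and chr11:114887548-114892706.

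Trem2, a lipid receptor of macrophages and microglia that signals through DAP12, fell with LPS from 215 and 258 CPM to 90.7 and 77.7 CPM in WT and from 149 and 155 CPM to 48.5 and 56.5 CPM in Adap-/- PMs. All Adap-/- values lay below the WT values of the same condition, with −0.64 ± 0.12 without and −0.69 ± 0.14 with LPS. Treml2, a neighbour on chromosome 17, rose with LPS by 1.85 ± 0.26 and 1.55 ± 0.29. The neighbouring gene described as B430306N03Rik had 1494 and 1575 CPM in WT and 1103 and 932 CPM in Adap-/- PMs after LPS and was lower in the latter (log2 fold change −0.59, standard error 0.11, adjusted p = 0.00168). Cd200r4, the activating CD200 receptor relative, rose by 1.44 ± 0.27 and 1.66 ± 0.28, and Cd200r1, the inhibitory receptor, fell in WT PMs (log2 fold change −1.43, standard error 0.44, adjusted p = 0.0107), with 6 to 9 reads per library after LPS. This call was lost with DESeq2 and without either WT LPS replicate.

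Receptors for altered self and dying cells differed among themselves. Msr1, scavenger receptor A, rose from 227 and 294 CPM to 776 and 817 CPM in WT and from 339 and 385 CPM to 722 and 735 CPM in Adap-/- PMs, and was higher in mock-treated Adap-/- PMs (0.48 ± 0.12). Cd68, the lysosomal macrophage marker, was called in none of the comparisons, with 3573 to 4363 CPM over all libraries. Havcr2, which encodes the phosphatidylserine receptor TIM-3, fell from 13.3 and 20.2 CPM to 1.55 and 0.723 CPM in WT and from 20.7 and 16 CPM to 0.282 and 2.19 CPM in Adap-/- PMs. The LPS libraries held 1 to 6 reads of it, so the size of the fall is loosely set.

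MHC class I genes rose almost throughout. Of 7 tested, 6 rose in each genotype and H2-D1 was called in neither. H2-K1, a classical class I heavy chain, had 4455 and 4298 CPM in mock-treated and 9314 and 8239.7 CPM in LPS-stimulated WT PMs (log2 fold change 1.00, standard error 0.12, adjusted p = 1.74e-06). H2-D1, the other classical chain, had 1231 and 1244 CPM without LPS and 1438 and 1217 CPM with it (log2 fold change 0.10, standard error 0.11, adjusted p = 0.433). Among the non-classical chains H2-M2 rose by 3.37 ± 0.20 on the log2 scale in WT PMs, H2-Q4 by 2.43 ± 0.11, H2-Q7 by 2.26 ± 0.31, H2-T22 by 1.75 ± 0.33 and H2-T23 by 0.82 ± 0.12. The same 5 genes rose in Adap-/- PMs, in this order, by 2.36 ± 0.17, 2.03 ± 0.10, 2.06 ± 0.27, 1.60 ± 0.37 and 0.96 ± 0.13. MHC genes are near copies of each other and reads can be split between them, so a level of 1 of these genes is uncertain.

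Between genotypes 4 MHC class I genes were called without LPS and 1 after it, and none was called in the test of the difference between responses. H2-Q4 had 238 and 223 CPM in mock-treated WT and 330.2 and 346 CPM in Adap-/- PMs (log2 fold change 0.55, standard error 0.10, adjusted p = 0.00182), and H2-M2 had 10.5 and 7.54 CPM and 16.5 and 23.5 CPM (log2 fold change 1.15, standard error 0.24, adjusted p = 0.00389). H2-D1 and H2-T23 were lower in mock-treated Adap-/- PMs (−0.34 ± 0.11 and −0.54 ± 0.13). These mock calls were lost without Adap-/- replicate 2 for H2-M2, without either Adap-/- replicate or WT replicate 2 for H2-D1, and without Adap-/- replicate 1 or WT replicate 2 for H2-T23. After LPS only H2-T23, which encodes Qa-1, was called of the 7 (log2 fold change −0.40, standard error 0.12, adjusted p = 0.0394), and it was not called when any 1 of the 4 LPS libraries was left out.

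Promoter sequences of the MHC class I genes are shown because 6 of the 7 rose with LPS. That of H2-D1, which was not called with LPS, and those of Pilra and Pilrb2, which differed between genotypes, stand beside them. RefSeq promoters (GRCm38.p6, 250 bases before to 50 after each start site) were found for 54 of the 68 members by name. They were searched on both strands for the κB consensus of NF-κB (10 letters) for GAAANNGAAA, the core of the interferon-stimulated response element (ISRE), and for TGANTCA, a motif of AP-1. Each line gives 50 bases 5′ to 3′ upstream of the start site on the strand of the gene, with the matched letters in capitals, overlapping matches together.
H2-K1 (κB match, chr17:34000429-34000478, minus strand): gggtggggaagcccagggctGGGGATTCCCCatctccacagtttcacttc
H2-D1 (κB match, chr17:35262903-35262952, plus strand): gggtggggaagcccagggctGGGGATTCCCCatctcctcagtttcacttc
H2-Q4 (κB match, chr17:35379423-35379472, plus strand): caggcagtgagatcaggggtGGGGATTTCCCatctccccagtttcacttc
H2-Q7 (κB match, chr17:35439002-35439051, plus strand): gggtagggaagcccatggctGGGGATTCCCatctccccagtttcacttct
H2-T22 (κB match, chr17:36042926-36042975, minus strand): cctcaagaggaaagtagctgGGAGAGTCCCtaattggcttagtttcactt
H2-M2 (κB match, chr17:37483705-37483754, minus strand): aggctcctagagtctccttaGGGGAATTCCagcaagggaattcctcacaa
H2-T22 (ISRE match, chr17:36042904-36042953, minus strand): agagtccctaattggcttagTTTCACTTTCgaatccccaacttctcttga
H2-T23 (ISRE match, chr17:36032796-36032845, minus strand): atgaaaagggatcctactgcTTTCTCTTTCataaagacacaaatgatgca
Pilra (ISRE match, chr5:137836427-137836476, minus strand): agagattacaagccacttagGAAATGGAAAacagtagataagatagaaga
Pilrb2 (ISRE match, chr5:137871959-137872008, minus strand): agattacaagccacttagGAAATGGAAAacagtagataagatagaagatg
The κB consensus was in the promoters of 12 of the 54 members with a sequence (22.2%) and in 8.46% of all 32851 promoters, and the ISRE core in 8 of 54 (14.8%) against 3.44%. Some members have several promoters in the table, and over the 59 member promoters the shares were 23.7% and 13.6%. The AP-1 motif was in 8 of 54 members (14.8%) and 7.81% of all promoters. The 12 members with a κB match include Cd151, Cd300a and Fcgr3, which fell with LPS, H2-Aa and H2-D1, which were not called with LPS, and Fcgr4 and Slamf8. The ISRE core was also in the promoters of Cd300c2, which fell with LPS, and of Clec4d. It was in those of Fcgr4 and Slamf8 too, which were lower in Adap-/- PMs, unlike Pilra and Pilrb2. H2-D1 holds the same κB letters as H2-K1. The windows of H2-K1, H2-D1 and H2-Q7, and those of Pilra and Pilrb2, are near copies of each other. After the match the window of H2-Q4 continues with the same letters as that of H2-Q7. These members are therefore not independent, and the shares count them separately. A match describes letters and not a bound site.

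MHC class II was nearly level. Cd74, the invariant chain, rose with LPS by 0.47 ± 0.13 in WT and 0.38 ± 0.13 in Adap-/- PMs, and H2-Aa, a class II alpha chain, was called in no comparison with 16.8 to 29.1 CPM per library. The call of Cd74 was lost without mock replicate 1 in WT and without LPS replicate 2 or mock replicate 1 in Adap-/- PMs. Of 20 further genes of antigen presentation fixed as a list, 17 were tested (18 gene IDs). In WT PMs 13 of these IDs rose and 4 fell with LPS, and the median log2 fold change was 1.38, while 13 rose and 3 fell in Adap-/- PMs with a median of 1.29. Tap1, a subunit of the peptide transporter, rose from 92.9 and 116 CPM to 1426 and 1456 CPM in WT PMs (log2 fold change 3.78, standard error 0.13, adjusted p = 2.97e-13). Nlrc5, the transactivator of class I genes, rose by 3.93 ± 0.15 in WT and 4.09 ± 0.15 in Adap-/- PMs, and B2m, the light chain of class I, by 0.76 ± 0.11 and 0.55 ± 0.11. The chaperones Calr and Pdia3 fell by 0.77 and 0.66 in WT PMs. Between genotypes 1 ID of the list was higher and 1 lower after LPS. These were Marchf1, a ubiquitin ligase that lowers class II at the surface, with 0.45 ± 0.12, and Ifi30, a lysosomal thiol reductase, with −0.39 ± 0.12.

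Costimulatory and checkpoint molecules rose with LPS, apart from Cd80. Cd40, the receptor for CD40 ligand, had 54.2 and 74.1 CPM in mock-treated and 6324 and 5873 CPM in LPS-stimulated WT PMs, and 82.4 and 83.7 CPM without LPS and 4282 and 4486 CPM with it in Adap-/- PMs. It was lower in Adap-/- PMs after LPS (log2 fold change −0.48, standard error 0.12, adjusted p = 0.0162). Cd274, which encodes PD-L1, had 453 and 536 CPM without LPS and 7391 and 7226 CPM with it in WT and 488 and 599 CPM without LPS and 5995 and 5744 CPM with it in Adap-/- PMs. Its difference after LPS was not called (log2 fold change −0.32, standard error 0.13, adjusted p = 0.106). Cd83, a maturation marker, rose by 1.92 ± 0.14 and 1.99 ± 0.14 and was lower in Adap-/- PMs without LPS (−0.63 ± 0.14) and with it (−0.55 ± 0.13). Cd80, a ligand of CD28, had 7 to 15 reads per library and was not called, a depth at which a modest change would not be seen.

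In the SLAM family of self-ligand receptors 4 of 6 rose and Cd84 fell with LPS in each genotype. Slamf1 had no read in any of the 4 mock input libraries and 11.8 and 19.2 CPM in WT and 24.3 and 23 CPM in Adap-/- PMs after LPS. Against 3 counts per mock library it was at least 19.7-fold higher with LPS in WT and at least 31.2-fold higher in Adap-/- PMs. Slamf7 had 1619 and 1439.9 CPM without LPS and 6427 and 6798 CPM with it in WT PMs and rose by 2.11 ± 0.12 and 1.79 ± 0.11 in WT and Adap-/- PMs. Slamf8 and Slamf9 rose as well but stayed lower in Adap-/- PMs. Slamf8 had 2808 and 2888 CPM in WT and 1886 and 1500.5 CPM in Adap-/- PMs after LPS (log2 fold change −0.75, standard error 0.13, adjusted p = 0.00126). Slamf9 had 163 and 162 CPM and 93.9 and 88.2 CPM (log2 fold change −0.83, standard error 0.16, adjusted p = 0.00216). Both were also lower in mock-treated Adap-/- PMs (−0.58 ± 0.13 and −0.98 ± 0.25).

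All 3 genes of the Ms4a family, tetraspan membrane proteins clustered on chromosome 19, rose in both genotypes. Ms4a4c had 6.91 and 15.6 CPM in mock-treated and 3334 and 3077 CPM in LPS-stimulated WT PMs, and 24.7 and 26.9 CPM without LPS and 3219.8 and 2573 CPM with it in Adap-/- PMs. Ms4a6c had 85.7 and 98.1 CPM without LPS and 1386 and 1249.9 CPM with it in WT, and 156 and 168 CPM without LPS and 1517 and 1479.7 CPM with it in Adap-/- PMs, with all of its peaks shared with another gene. Both were higher in mock-treated Adap-/- PMs (1.21 ± 0.27 and 0.82 ± 0.11) and neither was called between genotypes after LPS. Ms4a6d rose by 2.57 ± 0.11 and 2.61 ± 0.11 and was not called between genotypes in either condition.

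Among the tetraspanins only Cd151 changed with LPS, with a fall in both genotypes (−1.13 ± 0.11 in WT and −0.91 ± 0.11 in Adap-/- PMs), while Cd9, Cd53 and Cd63 were not called. Cd93, a C-type lectin-like receptor of myeloid and endothelial cells, fell from 980.0 and 946 CPM to 91 and 116 CPM in WT and from 1070.1 and 1041 CPM to 134 and 144 CPM in Adap-/- PMs, and its LPS-stimulated level was higher in Adap-/- PMs (log2 fold change 0.43, standard error 0.12, adjusted p = 0.0245). Cd38, an NAD-consuming ectoenzyme, had 0 reads in both mock-treated WT input libraries and 4 in each after LPS, and 2 and 1 reads against 19 and 13 in Adap-/- PMs. Against 3 counts per library it was at least 1.71-fold higher with LPS in WT and at least 6.66-fold higher in Adap-/- PMs. Cd52, a small GPI-anchored protein, did not pass the test with LPS and was lower in Adap-/- PMs without LPS (−0.75 ± 0.13) and with it (−0.67 ± 0.13). Cd44, the hyaluronan receptor, rose by 0.83 ± 0.10 and 1.02 ± 0.10, and Cd24a, a mucin-like GPI-anchored antigen, fell (−0.50 ± 0.14 and −0.68 ± 0.13), while being higher in mock-treated Adap-/- PMs (0.51 ± 0.12). Cd164, a sialomucin, rose (0.75 ± 0.30 and 0.75 ± 0.30) and lost its call in each genotype when any of several libraries was left out. Cd63, a tetraspanin of late endosomes, and Cd244a, a receptor of the SLAM family, had log2 fold changes with LPS between −0.80 and 0.16 and were not called in any comparison. Cd2ap, Cd2bp2 and Cd3eap carry a CD name but encode proteins inside the cell. Cd2ap rose in both genotypes (1.20 ± 0.21 and 0.67 ± 0.20), Cd2bp2 in Adap-/- PMs (0.33 ± 0.10) and Cd3eap fell in both (−0.99 ± 0.29 and −1.09 ± 0.29). The only peak of Cd3eap is shared with Ercc1, so its reads may come from either gene. Its call was lost without LPS replicate 2 in WT and without LPS replicate 1 in Adap-/- PMs. The Adap-/- calls of Cd2ap and Cd2bp2 were also lost when certain replicates were left out.

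The 5 members whose LPS response differed between genotypes all had the smaller rise in Adap-/- PMs. Clec4e (chr6:123258748-123266829), Ms4a4c (chr19:11385025-11404610) and Ms4a6c (chr19:11446730-11459556) started from a higher level in mock-treated Adap-/- PMs and were not called different after LPS. Cd69 (chr6:129244288-129252399) and Cd40 (chr2:164897547-164914868) were not called different without LPS and were lower in Adap-/- PMs after it. The LPS response was 3.30 in WT and 1.98 in Adap-/- PMs for Clec4e on the log2 scale, a difference of −1.32 ± 0.22 (adjusted p = 0.00494). For Cd69 it was 7.57 and 6.16, a difference of −1.42 ± 0.28 (adjusted p = 0.0162), and for Ms4a4c 8.16 and 6.81, a difference of −1.35 ± 0.31 (adjusted p = 0.0354). Cd40 and Ms4a6c had differences of −0.85 ± 0.19 and −0.63 ± 0.15 (adjusted p = 0.0346 and 0.0451). With all libraries kept, the call of Ms4a4c was lost with DESeq2. That of Ms4a6c was lost with a minimum of 10 reads in every input library and with the replicate number as a block. No call was left when Adap-/- mock replicate 2 was left out, while the 5 differences kept their sign. This was the only library without which Clec4e and Cd69 were not called. The count was 4 without WT mock replicate 1, 8 without WT mock replicate 2, 3 without Adap-/- LPS replicate 1, and 2 without each of Adap-/- LPS replicate 2, Adap-/- mock replicate 1 and either WT LPS replicate.

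**Figure D4:**
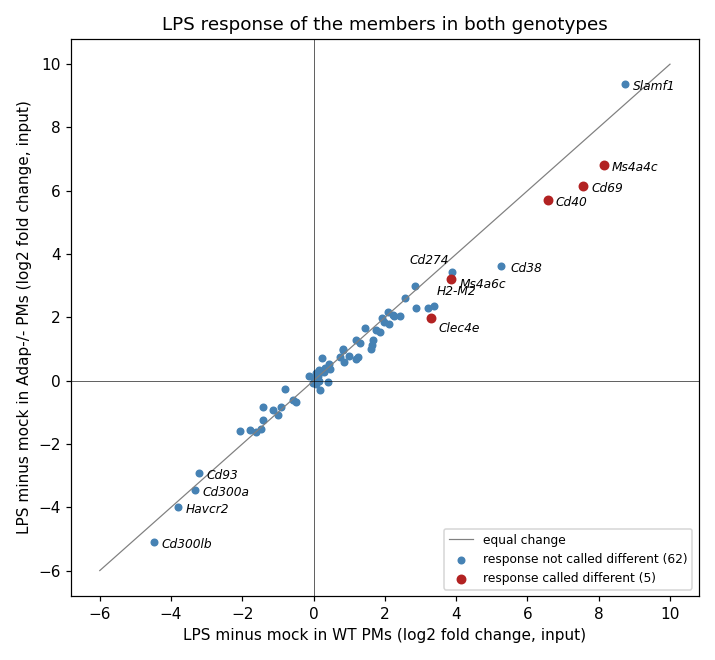
Log2 fold change of LPS over mock in input for the 67 tested members in WT PMs (horizontal axis) and Adap-/- PMs (vertical axis), with the line of equal change. The 5 members whose response was called different (red) lie below the line. The positions of Slamf1 and Cd38 depend on how 0 reads are treated and are no measure of size.

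The signalling partners of these receptors were partly in the table. Of 18 listed genes of ITAM and ITIM signalling 8 were tested. With LPS in WT PMs the kinases Syk and Lyn rose by 1.05 ± 0.11 and 1.46 ± 0.09, while the phosphatase gene Inpp5d, the kinase gene Fgr, and Tyrobp and Hcst, which encode DAP12 and DAP10, fell by 2.50, 1.44, 0.72 and 1.17 on the log2 scale. Tyrobp had 519.5 and 668 CPM without LPS and 378 and 344 CPM with it in WT and 375 and 377 CPM without LPS and 263 and 274 CPM with it in Adap-/- PMs, and was lower in Adap-/- PMs in both conditions (−0.66 ± 0.11 and −0.43 ± 0.12). Fgr was higher in both (0.52 ± 0.10 and 0.45 ± 0.11).

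The 116 member peaks were placed on the transcripts differently from all peaks. A start codon without a stop codon was covered by 31.0% of them and by 13.6% of all 7069 peaks, coding sequence alone by 12.9% and 31.7%, a stop codon without a start codon by 28.4% and 32.7%, both codons by 1.72% and 1.16%, and 3′UTR alone by 23.3% and 16.03%. Their median length was 212.5 bases against 175 bases, and 39 members had a single peak, while Cd93 and Slamf7 had 7 each. These are shares of 1 merged list and were not tested.

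The ratio of IP to input on a peak, in normalized CPM, is relative to the average peak, so that a change common to all peaks cannot be seen. At least 10 input reads in every library were found on 101 member peaks. Of these, 12 (11.9%) had a ratio above 1 and 31 (30.7%) below 1 in all 8 pairs of libraries, against 16.5% and 20.6% of the 5680 peaks of the table that met the same minimum. The 8 pairs include the mock IP libraries that stood apart, and the counts and ranges here were not computed without them. The highest median ratio among the members was at the stop codon of Fcgr2b (chr1:170788185-170788485), with 1.87 to 2.79 over the 8 pairs. The peak at the stop codon of Fcgr1 (chr3:96191324-96191724) had 1.65 to 4.19, and those of Cd22 at chr7:30575580-30577170 and chr7:30565226-30565401 had 1.42 to 2.90 and 1.33 to 2.17. Also above 1 throughout were 1 peak of Cd180, 2 of Slamf7 and 1 each of H2-Q4, Cd83, Cd9, Cd3eap and Cd200r4. On Cd180 3 other peaks, and on Slamf7 2 others, were below 1 throughout. Below 1 throughout were, among others, the peaks of Cd68, Clec7a, Fcgr3, Fcgr4, H2-D1, Pirb and Trem2.

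Changes of the ratio between groups were tested per peak with edgeR in 1 fit of the 16 libraries over 7058 peaks. After adjustment no member peak was called in any of the 4 comparisons, where 0.0% of all peaks were called for LPS in WT PMs, 0.0% for LPS in Adap-/- PMs, 0.0142% between genotypes after LPS and 0.0% between genotypes without LPS. An unadjusted p below 0.05 was reached by 26, 13, 12 and 2 member peaks in the same order (22.4%, 11.2%, 10.3% and 1.72% of them), and by 10.8%, 11.5%, 7.13% and 2.1% of all peaks. DESeq2 called 10, 2, 3 and 0 member peaks in that order, and 2.86%, 1.66%, 0.411% and 0.0% of all peaks. The lowest adjusted p among the members was 0.0747.

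Past an absolute log2 fold change of 1 with an unadjusted p below 0.05, LPS gave 12 higher and 11 lower member peaks in WT PMs, against 2.69% and 5.13% of all peaks (10.3% and 9.48% of the member peaks). In Adap-/- PMs it gave 2 higher and 7 lower, against 2.44% and 4.56%. The WT count was 12 and 2 without WT mock replicate 1, 10 and 29 without WT mock replicate 2, and with the LPS replicates left out in turn 5 and 4 (replicate 1) and 13 and 3 (replicate 2). The Adap-/- count was 3 and 17 without mock replicate 1, 3 and 8 without mock replicate 2, 4 and 6 without LPS replicate 1, and 1 and 4 without LPS replicate 2. The 7 lower peaks in Adap-/- PMs became 14 with RLE size factors, 13 with TMM within IP and within input libraries and 18 with DESeq2. The share of all peaks past these thresholds is not given for these settings or for the fits that leave out a replicate. Counts from those fits are therefore no result about the members. Between genotypes 0 were higher and 11 lower in Adap-/- PMs after LPS, against 1.32% and 2.82%, and 0 higher and 2 lower without LPS, against 0.68% and 0.595%. The count after LPS was 1 and 10 without Adap-/- replicate 1, 0 and 10 without Adap-/- replicate 2, 0 and 4 without WT replicate 1 and 1 and 12 without WT replicate 2. Without LPS it was 1 and 2, and 0 and 1, without Adap-/- replicates 1 and 2 in turn, and 4 and 0, and 1 and 10, without WT replicates 1 and 2. The median log2 fold change of the member peaks was −0.26, −0.29, −0.13 and −0.18 in the 4 comparisons, and that of all peaks 0.10, 0.05, 0.01 and −0.01.

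The 11 peaks with the lower ratio in WT PMs belong to transcripts that LPS raised in input (Cd40, Cd69, Cd274, Ms4a4c, Ms4a6c, Slamf7 and Slamf9), and on those described here the mock IP libraries that stood apart held the most IP reads of their group. The part of this in the ratios was not tested. On the Cd40 peak (chr2:164904235-164913343, coding sequence, stop codon and 3′UTR) the mock-treated WT replicates had 11917 and 957 IP reads and 212 and 275 input reads, and the Adap-/- replicates 2784 and 7075 IP and 314 and 345 input reads. After LPS the WT replicates had 9887 and 14869 IP and 20352 and 16248 input reads, so their ratios were 0.18 and 0.136, against 18.7 and 0.585 without LPS. The change with LPS was log2 fold change −5.68, standard error 1.54, unadjusted p = 0.00343, adjusted p = 0.232 in WT and log2 fold change −4.53, standard error 1.50, unadjusted p = 0.0116, adjusted p = 0.301 in Adap-/- PMs. It was −1.86 in WT PMs without mock replicate 1 and −2.62 in Adap-/- PMs without mock replicate 2.

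Cd69, Ms4a4c and Cd274 had the same pattern of reads. The Cd69 peak at chr6:129245237-129247127 had 964 and 91 IP reads in mock-treated and 658 and 755 in LPS-stimulated WT PMs. Its input reads were 12 and 11 without LPS and 2002 and 1502 with it. Its log2 fold change was −7.13 ± 1.57 in WT PMs and −3.78 without mock replicate 1. The Ms4a4c peak at chr19:11392195-11404084 had 4521 and 422 IP reads in mock-treated and 2398 and 1552 in LPS-stimulated WT PMs, and changed by −8.33 ± 1.88, or −4.46 without mock replicate 1. The Cd274 peak at chr19:29357643-29357893 changed by −3.18 ± 1.14 in WT PMs and by −0.81 without that replicate, with an unadjusted p of 0.420. In Adap-/- PMs the Cd69 and Ms4a4c peaks changed by −6.06 ± 1.53 and −7.09 ± 1.82, and by −4.77 and −4.51 without mock replicate 2. Further peaks past these thresholds as lower with LPS in WT PMs were on Slamf7 (−1.18 ± 0.38), Slamf9 (−1.25 ± 0.45) and Ms4a6c (2 peaks, −2.69 ± 1.12 and −1.89 ± 0.77). Without mock replicate 1 none of them passed, with −0.67 for Slamf7 (unadjusted p of 0.0832), −0.84 for Slamf9 (unadjusted p of 0.155) and −0.35 and −0.44 for Ms4a6c (unadjusted p of 0.723 and 0.507). In Adap-/- PMs a further lower peak was on Cd300lb (chr11:114814406-114814531, −4.07 ± 1.39), with −3.98 without mock replicate 2. It had no IP reads in either LPS-stimulated Adap-/- replicate. Its value thus depends on how an absence of reads is treated and is no measure of size. More were on Msr1 (−1.20 ± 0.48) and H2-T22 (−1.53 ± 0.67), which changed by −1.49 and −1.50 without mock replicate 2. The H2-T22 peak did not pass then, with an unadjusted p of 0.110. With both of these mock replicates left out, a setting chosen after seeing the data in which the remaining mock replicate of each genotype is taken to vary like the other groups, edgeR called the Cd40 and 1 Cd300lb peak in WT and the Cd40 and Cd69 peaks and 1 B430306N03Rik peak in Adap-/- PMs.

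The 12 peaks with the higher ratio in WT PMs lie on transcripts that LPS lowered in input, apart from 1 on Pirb. The Cd93 peak at chr2:148280384-148280459 in the 3′UTR had ratios of 0.31 and 0.197 in mock-treated WT PMs, from 338 and 310 input reads, and of 2.27 and 0.969 after LPS, from 17 and 17 input reads (log2 fold change 2.61, standard error 0.50, unadjusted p = 0.000264, adjusted p = 0.204). Its ratios in Adap-/- PMs were 0.141 and 0.159 without LPS and 0.316 and 0.151 with it (log2 fold change 0.57, standard error 0.49, unadjusted p = 0.269, adjusted p = 0.714). The Cd300a peak at chr11:114792342-114792392 had ratios of 0.176 and 0.0837 without LPS and 0.882 and 0.511 with it in WT PMs (log2 fold change 2.48, standard error 0.57, unadjusted p = 0.00103, adjusted p = 0.207). On Cd300lb the 4 peaks changed by 1.18 to 3.29 on the log2 scale in WT PMs. The other member peaks past these thresholds as higher with LPS were 4 more on Cd93 and 1 each on Cd84 and Pirb in WT PMs, and 1 each on Cd164 and Cd300lb in Adap-/- PMs. The 2 WT LPS IP libraries are those that held more reads of LPS-lowered transcripts outside the members, and the part of this in the ratios was not tested.

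The same peaks made up much of the difference between genotypes after LPS. On the Cd93 peak at chr2:148280384-148280459 the ratio was 2.27 and 0.969 in WT and 0.316 and 0.151 in Adap-/- PMs (log2 fold change −2.80, standard error 0.53, unadjusted p = 0.000252, adjusted p = 0.162). On the Cd300a peak it was 0.882 and 0.511 in WT and 0.0836 and 0.199 in Adap-/- PMs (log2 fold change −2.51, standard error 0.59, unadjusted p = 0.00132, adjusted p = 0.379). The Cd300lb peak at chr11:114814406-114814531 had 173 and 172 IP reads in WT and none in either Adap-/- replicate, with 34 and 34 input reads in WT and 10 and 11 in Adap-/- PMs. Of the 11 peaks past these thresholds, 4 are on Cd93, 2 on Cd300lb and 1 each on Cd300a, Cd53, Cd74, Msr1 and the stretch shared by Lilrb4a and Gm49339.

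**Figure D5:**
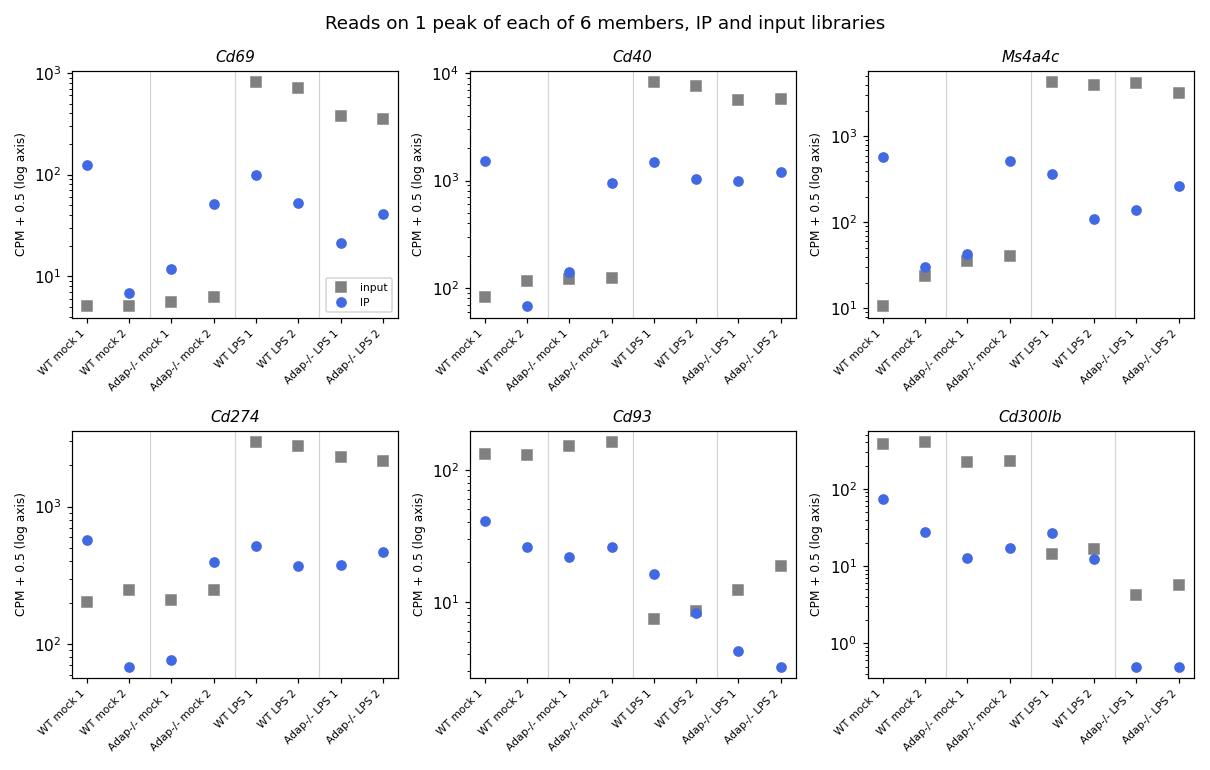
IP reads (circles) and input reads (squares) as normalized CPM + 0.5 on a log axis, in each of the 8 pairs of libraries, for 1 peak of Cd69, Cd40, Ms4a4c, Cd274, Cd93 and Cd300lb. In the top row and for Cd274 the IP level of WT mock replicate 1 and Adap-/- mock replicate 2 lies among those of the LPS libraries or above them while the input does not. For Cd93 and Cd300lb the IP level of both WT LPS replicates is close to or above the input.

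Without LPS 2 peaks passed these thresholds between genotypes. The Cd38 peak had at most 2 input reads in any mock library, so its ratio cannot be measured there. The H2-M2 peak at chr17:37791741-37791791 had ratios of 1.59 and 0.55 in WT and 0.516 and 0.264 in Adap-/- PMs (log2 fold change −1.59, standard error 0.72, unadjusted p = 0.0497, adjusted p = 1), and changed by −0.08 with both mock replicates named above left out.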

How the data were processed

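The MeRIP-seq data comprised 16 libraries, 1 IP and 1 input library for each of 2 replicates in 4 groups. The table deposited by the authors holds raw read counts of every library over merged m6A peaks, 1 line per peak and gene (8094 lines). The submitters' processing notes name Bowtie2 2.2.8, MACS2 2.1.2, DiffBind 2.8 and GRCm39. Peaks were merged over all samples, so presence of a peak was not compared between groups. No column of per-sample values was left unused (0 columns).

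Input counts of all peaks of a gene ID were summed, so a level covers the peak regions of a transcript and not its whole length, and CPM were computed from the libraries' TMM-normalized totals. Genes and peaks were filtered with filterByExpr (minimum count 10, minimum total 15) and tested with edgeR 4.0.16 in R 4.3.3 by quasi-likelihood F tests, for input as group contrasts over 8 libraries and for m6A as the difference of IP over input between groups over 16 libraries. A call is a Benjamini-Hochberg adjusted p below 0.05 over all genes or peaks. Variation between replicates was 8.82% for genes and 30.6% for peaks (coefficient of variation estimated by edgeR). It may be technical, and the value for peaks covers all 16 libraries, with the IP libraries that stood apart. DESeq2 1.42.0 was the other test, and the code was tested on simulated data. Figures were drawn with matplotlib 3.10.9. Promoters came from RefSeq sequences of GRCm38.p6, whose coordinates are not those of the peaks.

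Named were the 8 members with the largest called rise and fall in each input comparison, those called between genotypes, the 5 leading peaks in each direction, and members with a defining role. One gene of the listed signalling partners is not reported here. The members and the lists were chosen with earlier results of these data known.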

Additional observations from a re-analysis of the deposited data

Results flagged for a closer look

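The LPS response differed between Adap-/- and WT PMs for 5 members in the test of the difference itself, by −1.42 on the log2 scale for Cd69, −1.32 for Clec4e, −1.35 for Ms4a4c, −0.63 for Ms4a6c and −0.85 for Cd40. In each of them the rise was smaller in Adap-/- PMs. With 2 replicates a group, all of these calls were lost without Adap-/- mock replicate 2. The test used input libraries alone, so the IP library of that replicate, which stood apart, did not enter it.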

How the results depend on the processing

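With LPS, 44 of the 54 members called in WT PMs kept an adjusted p below 0.05 in every alternative fit that tested them. In Adap-/- PMs 46 of the 55 did so, and no called input difference changed sign. Leaving out 1 replicate at a time gave 48 to 52 and 48 to 51 members called with LPS, 14 to 20 between genotypes after LPS, 13 to 29 without LPS and 0 to 8 for the difference between responses, and 0 to 3 peaks for the m6A ratio with LPS in WT PMs (3 without WT mock replicate 2) and 0 to 2 between genotypes after LPS (2 without Adap-/- LPS replicate 2). Thresholds of a log2 fold change past 1 in size and an unadjusted p under 0.05 left 42 members with LPS in WT and 39 in Adap-/- PMs. They left 6 members between genotypes after LPS and 8 without LPS, and gave 23, 9, 11 and 2 peaks for the m6A ratio (LPS in WT, LPS in Adap-/-, genotype with and without LPS). DESeq2 called 10, 2, 3 and 0 peaks, and 12, 5, 6 and 0 when fitted to only the libraries compared. With both mock replicates whose IP libraries stood apart left out it was 2, 3, 0 and 0 with edgeR. These last 2 settings, and the crossed block, were chosen after seeing the data. The share of all peaks called is not given for the last 2 settings or for the fits that leave out 1 replicate. Their peak counts are therefore no result about the members. The Cd69 peak that starts at position 129244887 turned from −3.50 with LPS in WT PMs to 0.26 without WT mock replicate 1 (−4.79 without WT mock replicate 2) and to 0.19 without both of those mock replicates. The cause of these changes was not tested. Replicate numbers share only a number: deviations of same-numbered input libraries correlated between −0.09 and 0.17 across genes. With the replicate block 54, 55, 26, 27 and 4 members were called in the 5 input comparisons and 0 peaks in each m6A comparison, where IP and input of mock-treated WT PMs correlated at −0.11 and the crossed pairing also gave 0. With 2 replicates a group and 30.6% variation between peaks, a modest change of the ratio could not be detected, and members with few reads, such as Cd38, Cd80 and Havcr2, have loosely set sizes.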
